A study of Schizosaccharomyces pombe with 12 samples.

Results

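The small (40S) subunit of the ribosome of the fission yeast Schizosaccharomyces pombe was described through 46 of its protein genes (rps), taken as the rows of the count table with the listed identifiers, of 7268 features in all. RNA-seq of whole cells covered wild-type cells, cells carrying lsd1dHMG (written lsd1-ΔHMG, a C-terminal truncation of the histone demethylase Lsd1 that removes its HMG domain), and cells carrying set1d (set1Δ, without the histone H3K4 methyltransferase Set1), each at 30°C and after a shift to 37°C. There were 2 independently derived replicates in each of the 6 groups, 12 libraries in all. The question addressed was how far the truncated Lsd1 and the absence of Set1 changed RNA levels at either temperature. The truncated allele was built on an epitope-tagged lsd1 gene, whereas nothing in the labels says that the wild-type cells carried a tag.

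The 40S subunit binds messenger RNA and reads its codons, and it is built from a single ribosomal RNA and a set of proteins made in near-equal numbers. Its head and its body with the platform enclose the path of the messenger RNA. In fission yeast many of the proteins are encoded by a pair of paralogs, and the genes are transcribed from short promoters that carry the HomolD box in place of a TATA box, often with a HomolE box further upstream. Growth signals through the TOR kinase raise the synthesis of these genes in yeasts, and stress lowers it.

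The 46 genes encoded 28 protein families, 16 of the genes encoding proteins of the head and 30 of the body and platform. Of the 21 pairs of paralogs with at least 1 of these genes, 18 had both, and rps1201, rps1602 and rps2401 paired with a gene that was not listed. The encoded proteins differed by 0 to 59 residues within a pair. By RefSeq's annotation of ASM294v3, matched by identifier, 26 of the genes lay on chromosome I, 13 on II and 7 on III, and 23 held an intron. Their median GC content was 43.6%, against 36.8% for the 5104 protein-coding genes tested, and their median length was 686 bases against 1774.

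The windows upstream of the annotated gene starts are shown for 4 pairs whose ratio changed and for rps2 and rps20, which are divergent neighbours with 490 bases between their starts. HomolD (CAGTCACA) and the core of HomolE (CCCTACCC), on either strand, are in capitals, and each window is the last 120 bases before the start in RefSeq's ASM294v3, given 5′ to 3′ on the strand of the gene.
rps23, chrI:2135811-2135930, minus strand: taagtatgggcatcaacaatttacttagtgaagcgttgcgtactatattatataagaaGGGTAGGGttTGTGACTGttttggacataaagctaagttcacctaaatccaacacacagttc
rps2302, chrII:2896967-2897086, plus strand: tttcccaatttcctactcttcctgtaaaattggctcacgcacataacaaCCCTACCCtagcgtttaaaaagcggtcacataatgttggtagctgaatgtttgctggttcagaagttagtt
rps1901, chrII:3818159-3818278, plus strand: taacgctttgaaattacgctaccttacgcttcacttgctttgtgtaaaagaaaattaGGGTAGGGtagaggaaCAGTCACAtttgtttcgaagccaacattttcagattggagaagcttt
rps1902, chrII:535222-535341, plus strand: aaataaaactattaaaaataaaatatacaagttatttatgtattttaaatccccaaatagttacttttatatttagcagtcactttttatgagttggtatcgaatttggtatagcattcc
rps801, chrI:4287433-4287552, minus strand: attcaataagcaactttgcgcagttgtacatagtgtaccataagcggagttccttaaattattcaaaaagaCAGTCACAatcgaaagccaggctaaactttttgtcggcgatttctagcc
rps802, chrI:849363-849482, plus strand: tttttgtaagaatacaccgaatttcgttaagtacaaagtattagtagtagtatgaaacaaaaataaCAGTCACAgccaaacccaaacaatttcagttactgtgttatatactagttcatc
rps001, chrII:2778785-2778904, plus strand: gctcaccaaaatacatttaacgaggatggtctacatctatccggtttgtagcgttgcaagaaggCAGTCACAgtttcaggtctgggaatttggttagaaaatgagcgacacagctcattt
rps002, chrI:4037613-4037732, minus strand: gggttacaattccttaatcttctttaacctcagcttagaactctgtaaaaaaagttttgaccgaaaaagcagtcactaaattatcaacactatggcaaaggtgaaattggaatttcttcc
rps2, chrIII:2096037-2096156, minus strand: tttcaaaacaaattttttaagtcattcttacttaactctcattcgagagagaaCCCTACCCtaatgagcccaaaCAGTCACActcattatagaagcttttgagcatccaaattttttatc
rps20, chrIII:2096407-2096526, plus strand: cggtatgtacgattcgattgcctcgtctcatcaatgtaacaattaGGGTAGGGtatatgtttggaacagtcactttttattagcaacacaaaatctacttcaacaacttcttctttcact

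HomolD was present in the 250 bases upstream of 30 of the 46 genes (65.2%), against 2.62% of the 5105 protein-coding windows of that length. The match nearest to the start lay 43 to 66 bases upstream, with a median of 50.5, and stood on the strand of the gene in 18 and on the other strand in 12. The HomolE core was present in 18 genes (39.1%), against 1.55% of all windows, and 11 genes had both. The first 7 bases of HomolD (CAGTCAC), searched after the windows had been seen, occurred in 42 of the 46, against 4.52% of all windows. These motifs were not particular to the small subunit. Of the 86 large-subunit genes, 62.8% had HomolD, 30.2% the HomolE core and 88.37% the first 7 bases of HomolD. Within the pairs shown, rps23, rps1901 and rps001 held the full HomolD in the printed window and rps2302, rps1902 and rps002 did not. Both rps801 and rps802 held it. The windows of rps1902 and rps002 held its first 7 bases, however, and that of rps2302 a match with a single base changed. Such a difference was not particular to pairs whose ratio changed. Among pairs not called in any comparison, rps1102, rps1502, rps2801 and rps3001 held HomolD and their paralogs did not. Both genes held it in the uncalled pairs rps1701 and rps1702, and rps401 and rps403. So did both in the called pairs rps2201 and rps2202, and rps601 and rps602.

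**Figure D1:**
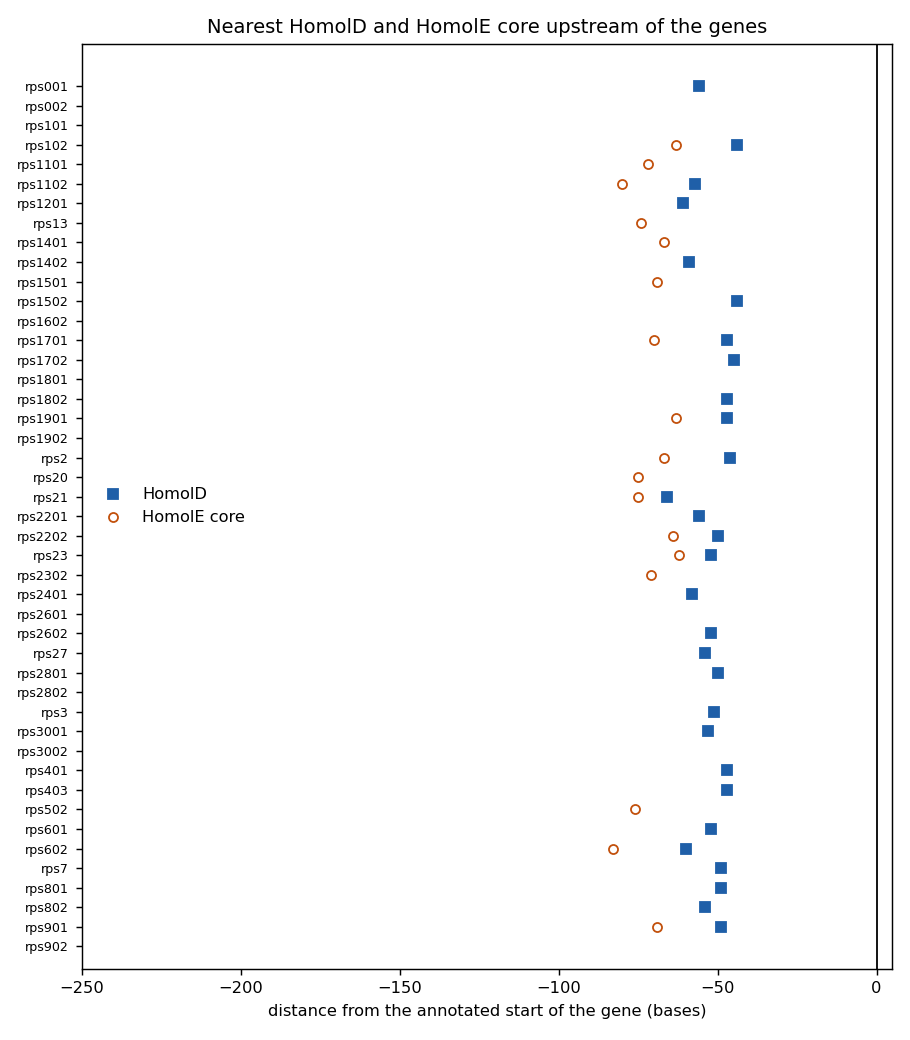
Distance in bases from the annotated start of 45 of the 46 genes (rows) to the nearest HomolD (squares) and HomolE core (open circles) in the 250 bases upstream. HomolD matches sit 44 to 66 bases upstream in the 29 plotted genes that have one.

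Totals were 27642384 to 34843653 counts per library, of which the 46 genes took 3.11% to 5.20%, and each of the genes had 334 to 257342 counts in every library. CPM values (counts scaled to library size) give a gene's share of the library and not copies per cell. The set1 gene stood at 14.3 to 16.2 CPM in the 4 set1Δ libraries and at 64.4 to 112 CPM in the 8 others. The heat marker hsp16, a small heat shock protein gene, went against the temperature labels in wild-type: it stood at 39422 and 36205 CPM in the libraries labelled 30°C and at 4533 and 5798 CPM in those labelled 37°C. It rose with the labelled temperature in the mutants, from 2261 and 2179 to 3968 and 5094 CPM in lsd1-ΔHMG and from 829.7 and 727 to 15391 and 19026 CPM in set1Δ. Labels were kept as given, and every wild-type value below is that of the libraries so labelled. At each temperature the same pair of wild-type libraries served as the control for both mutants.

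The levels of the 46 genes were spread widely in wild-type and narrowly in lsd1-ΔHMG. Per kilobase of gene, the lowest in every library was rps001 (SPBC685.06), which encodes uS2, a protein of the body, and the highest was rps21 (SPBC18E5.06), which encodes eS21 beside it, in 9 libraries, with rps2401 and rps23 highest in the others. The highest stood over the lowest by 87.8 and 91.1 times in wild-type at 30°C and by 614 and 823 times at 37°C. In lsd1-ΔHMG the ratio was 9.13 and 19.7 at 30°C and 7.03 and 11.9 at 37°C, and in set1Δ it was 99.4 and 143 at 30°C and 15.5 and 16.7 at 37°C. All 4 lsd1-ΔHMG libraries lay below all 4 wild-type libraries, set1Δ at 30°C lay above wild-type at 30°C, and set1Δ at 37°C fell within the range of lsd1-ΔHMG.

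The standard deviation of the log2 levels per kilobase over the 46 genes, given as a description, was 1.58 and 1.54 in wild-type at 30°C and 1.97 and 2.03 at 37°C. It was 0.63 and 0.80 in lsd1-ΔHMG at 30°C and 0.58 and 0.67 at 37°C, and in set1Δ it was 1.48 and 1.58 at 30°C and 0.77 and 0.86 at 37°C. Summing the listed genes of each of the 28 families left a like spread, at 1.61 and 1.58 in wild-type at 30°C and 0.64 and 0.78 in lsd1-ΔHMG at 30°C. Paralogs that were not listed are not in these sums. The 86 large-subunit genes had standard deviations of 1.66 to 2.17 in wild-type and 1.16 to 1.30 in lsd1-ΔHMG, and the protein-coding genes as a whole 2.20 to 2.29 and 1.71 to 1.81. With offsets that remove each library's trend with gene GC content and length, an alternative added after the data had been seen, the 46 genes gave 1.46 to 1.83 in wild-type and 0.64 to 0.96 in lsd1-ΔHMG.

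**Figure D2:**
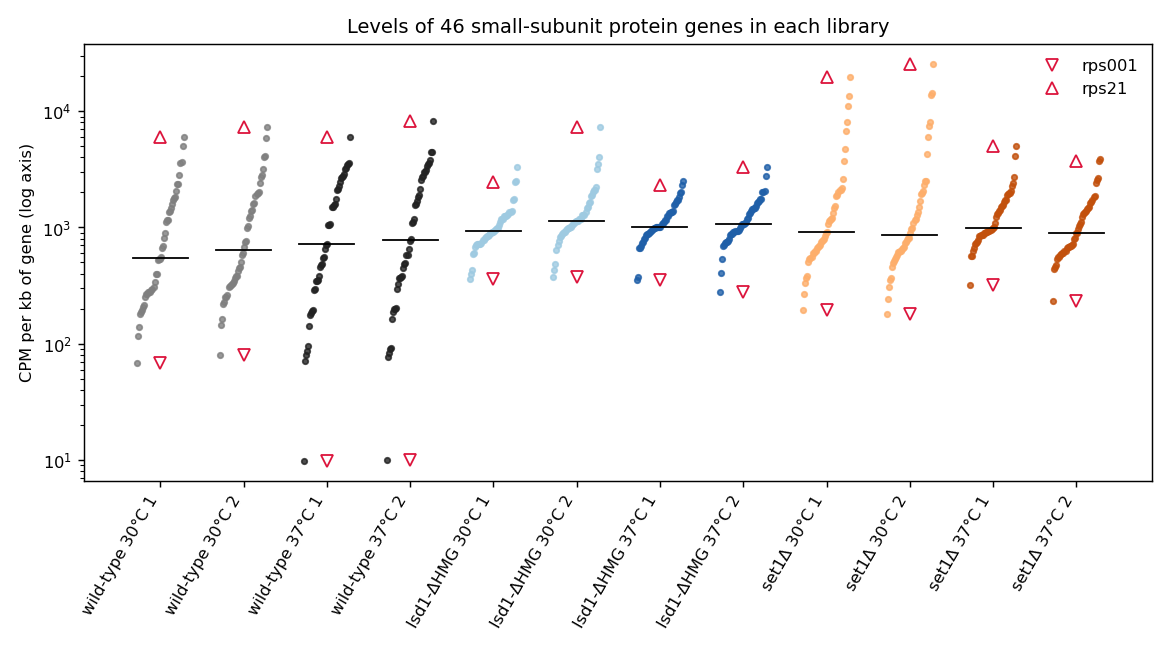
Levels of the 46 genes, in CPM per kilobase of gene on a log axis, in each of the 12 libraries, sorted within a library, with the median as a bar. Open triangles mark rps001 and rps21, which lie further apart in every wild-type library than in any lsd1-ΔHMG library.

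In lsd1-ΔHMG at 30°C, 22 of the 46 genes were higher than in wild-type and 1 was lower, with a median log2 fold change of 0.84 against -0.11 over all 6904 features tested. A gene was called where edgeR's quasi-likelihood test gave an adjusted p under 0.05 and the log2 fold change was at least 1 in either direction. Over all features 24.4% were called higher and 18.1% lower. At 37°C, 20 were higher and 9 lower (median 0.42), against 25.4% and 15.4% of all features. In set1Δ, 19 were higher and 0 lower at 30°C (median 0.84, all features 21.1% and 11.6%), and 14 were higher and 0 lower at 37°C (median 0.06, all features 18.7% and 5.53%). The 0 genes called lower in set1Δ compare with 5 at 30°C and 12 at 37°C that were lower at an unadjusted p under 0.05 in edgeR, and DESeq2 and limma-voom also called 0 at both temperatures.

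These counts changed under offsets for the GC content and length of the genes, and the cause of that change was not tested. Over the 5104 protein-coding genes, the fold change correlated with GC content at r = 0.49 and 0.57 in lsd1-ΔHMG at 30°C and 37°C and at 0.11 and 0.50 in set1Δ, a correlation across genes, which are not independent replicates. With gene length on the log2 scale, r was 0.32 and 0.34 in lsd1-ΔHMG and 0.005 and 0.22 in set1Δ. With offsets for GC content and length in the same test, the 46 genes had 6 higher and 10 lower in lsd1-ΔHMG at 30°C (median 0.03) and 5 higher and 18 lower at 37°C (median -0.66). In set1Δ they had 4 higher and 4 lower at 30°C (median 0.46) and 5 higher and 18 lower at 37°C (median -0.81). All features under the offsets gave 16.5% higher and 16.8% lower in lsd1-ΔHMG at 30°C and 15.9% and 15.6% at 37°C, and 14.7% and 14.6% in set1Δ at 30°C and 12.7% and 10.3% at 37°C. Of the genes called without offsets, 6 of 23, 13 of 29, 4 of 19 and 5 of 14 kept their call and direction under the offsets, in the order lsd1-ΔHMG at 30°C and 37°C and set1Δ at 30°C and 37°C. At 37°C the offsets turned the median of lsd1-ΔHMG from 0.425 to -0.66. The set1Δ median went to -0.81 from 0.062, a value near 0 that ranged from -0.013 to 0.234 when single libraries were left out.

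**Figure D3:**
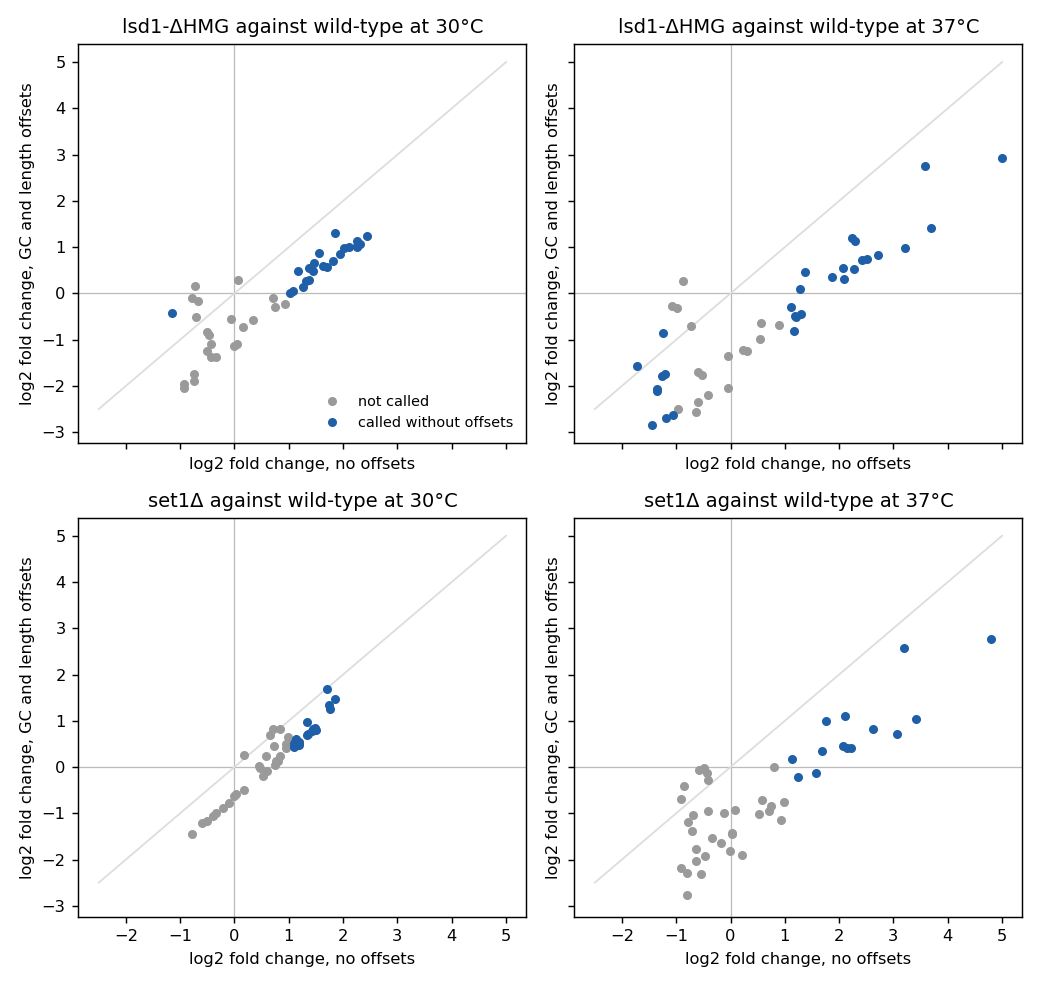
Log2 fold change of each of the 46 genes against wild-type without offsets (x axis) and with offsets for GC content and length (y axis), with points called without offsets in blue. Most points lie below the diagonal, and those of rps001 and rps13 stay above 2 on both axes at 37°C.

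The 12 genes called higher in all of the 4 comparisons without offsets were rps001, rps002, rps102, rps13, rps1901, rps2, rps2302, rps2602, rps3, rps602, rps7 and rps802, against 6.56% of all features. None of the 12 was called in all 4 under the offsets, where 2.82% of all features were. They include both uS2 genes, uS5 (rps2) and uS3 (rps3) at the entry of the messenger RNA channel, and uS12 (rps2302) of the decoding centre. Of the 46 genes, 29 were called higher in at least 1 of the 4, 10 lower in at least 1, and 11 in none, against 43.4%, 33.1% and 32.3% of all features. Under the offsets these counts were 13, 21 and 16, against 33.1%, 33.7% and 39.5%. Without wild-type 30°C replicate 1, rps1901 (0.96), rps2602 (0.92) and rps3 (0.98) fell below the limit of 1 in set1Δ at 30°C, and without set1Δ 37°C replicate 1 rps2602 (0.99) did so at 37°C. The 5 genes with the largest sum of the 4 log2 fold changes are given first. Genes described one by one were picked by their values in these same libraries. A lack of overlap between groups in them is therefore a description and no further evidence, and its frequency over all features is not given.

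rps001 (SPBC685.06) stood at 71 and 83.3 in wild-type at 30°C and 10.2 and 10.4 at 37°C, 376 and 387 in lsd1-ΔHMG at 30°C and 368 and 288 at 37°C, and 204 and 186 in set1Δ at 30°C and 333 and 242 at 37°C, all in CPM. Every mutant library lay above every wild-type library. Its log2 fold change against wild-type at 37°C was 4.99 ± 0.17 in lsd1-ΔHMG (edgeR adjusted p = 4.9e-11) and 4.80 ± 0.17 in set1Δ (edgeR adjusted p = 1.6e-10), with values of 2.92 and 2.76 under the offsets. rps2 (SPCC576.08c), for uS5, which helps to keep decoding accurate, stood at 196 and 237 in wild-type at 30°C and 63.8 and 69.8 at 37°C, 997 and 1064 in lsd1-ΔHMG at 30°C and 905 and 828 at 37°C, and 612 and 569.6 in set1Δ at 30°C and 830.3 and 602 at 37°C. The groups did not overlap between mutants and wild-type. In lsd1-ΔHMG at 37°C it was higher by 3.70 ± 0.15 on the log2 scale, in set1Δ by 3.42 ± 0.15, and by 1.42 and 1.04 under the offsets.

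rps13 (SPAC6F6.07c), for uS15 of the body, stood at 228 and 257 in wild-type at 30°C and 65.9 and 68.6 at 37°C, 772 and 974 in lsd1-ΔHMG at 30°C and 819.9 and 779 at 37°C, and 618 and 605 in set1Δ at 30°C and 739 and 498 at 37°C. Mutant libraries were again all above wild-type. At 37°C the log2 difference from wild-type reached 3.57 ± 0.17 in lsd1-ΔHMG, 3.20 ± 0.17 in set1Δ, and 2.75 and 2.57 under the offsets. The rps13 gene overlaps cdc16 on its own strand, so its reads cannot be fully told apart from those of that gene. The same limit holds for rps2 (overlapping SPNCRNA.1261), rps3 (fkh2 and snR48) and rps1801 (SPNCRNA.1623). rps602 (SPAPB1E7.12), for eS6, which is phosphorylated downstream of TOR, stood at 151 and 177 in wild-type at 30°C and 70 and 74.7 at 37°C, 745 and 822 in lsd1-ΔHMG at 30°C and 755 and 592 at 37°C, and 430.0 and 403 in set1Δ at 30°C and 700.1 and 513 at 37°C. Wild-type was lowest at 37°C. The log2 fold changes at 37°C were 3.22 ± 0.16 in lsd1-ΔHMG and 3.07 ± 0.16 in set1Δ, and 0.98 and 0.72 under the offsets. rps002 (SPAPJ698.02c), the other uS2 gene, stood at 127 and 156 in wild-type at 30°C and 103 and 98 at 37°C, 775 and 762 in lsd1-ΔHMG at 30°C and 749 and 574 at 37°C, and 409.8 and 379 in set1Δ at 30°C and 718 and 518 at 37°C, and at 37°C changed by 2.71 ± 0.16 in lsd1-ΔHMG and 2.62 ± 0.16 in set1Δ, and 0.82 and 0.83 under the offsets.

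The 5 genes with the lowest sums encode uS19, uS13, eS19 and eS27. rps1902 (SPBC649.02), for eS19, a head protein needed to mature the small-subunit RNA, stood at 372 and 406 in wild-type at 30°C and 728 and 758 at 37°C, 280.5 and 299 in lsd1-ΔHMG at 30°C and 262 and 281 at 37°C, and 259 and 255 in set1Δ at 30°C and 400.3 and 389 at 37°C. It was lower in every lsd1-ΔHMG library than in wild-type at 37°C, with a log2 fold change of -1.45 ± 0.08 (edgeR adjusted p = 5.1e-10) and -2.85 under the offsets. rps1501 (SPCC1393.03), for uS19 near the decoding site, stood at 954 and 1102 in wild-type at 30°C and 1903 and 2076 at 37°C, 811 and 807 in lsd1-ΔHMG at 30°C and 936 and 984 at 37°C, and 629 and 560.1 in set1Δ at 30°C and 1139.9 and 1139.8 at 37°C. rps1502 (SPAC1071.07c), its paralog, stood at 1225 and 1359.7 in wild-type at 30°C and 2314 and 2274 at 37°C, 788 and 759.7 in lsd1-ΔHMG at 30°C and 926 and 1076 at 37°C, and 1023 and 1008 in set1Δ at 30°C and 1327 and 1609 at 37°C. Both fell in lsd1-ΔHMG at 37°C, by log2 fold changes of -1.05 ± 0.10 and -1.20 ± 0.11, although rps1501 stood at -0.99 without wild-type 37°C replicate 2. rps1802 (SPCC1259.01c), for uS13, which bridges the subunits, stood at 1438 and 1724 in wild-type at 30°C and 2109.8 and 2315 at 37°C, 757 and 899 in lsd1-ΔHMG at 30°C and 1045 and 1224 at 37°C, and 1231 and 1174 in set1Δ at 30°C and 1659 and 1537 at 37°C and was lower by less than the limit of 1 on the log2 scale in each of the 4 comparisons without offsets. rps27 (SPBC1685.10), for the zinc-binding eS27, stood at 1566 and 1815 in wild-type at 30°C and 1795 and 2322 at 37°C, 557 and 1405 in lsd1-ΔHMG at 30°C and 895 and 1172 at 37°C, and 2458 and 2862 in set1Δ at 30°C and 1319 and 948 at 37°C. The libraries did not overlap with wild-type at the same temperature in either mutant, but rps27 was not called in any of the 4 comparisons with or without offsets. Under the offsets rps1501, rps1802 and rps1902 were called lower in all 4 comparisons, and so was rps801, which is named here after its values were seen, against 1.22% of all features. The values with offsets were -1.96 and -2.49 for rps1802 and -1.38 and -2.62 for rps1501 in lsd1-ΔHMG at 30°C and 37°C, and in set1Δ -1.06 and -1.93 for rps1802 and -1.45 and -2.29 for rps1501.

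The only gene called lower in lsd1-ΔHMG at 30°C was rps3002 (SPBC19G7.03c), one of the eS30 genes, with a log2 fold change of -1.15 ± 0.46 (edgeR adjusted p = 0.047). Its lsd1-ΔHMG libraries stood at 348 and 987 CPM, and the call was lost when any of 11 of the 12 libraries was left out, with edgeR adjusted p of 0.053 to 0.13. The 2 lsd1-ΔHMG libraries at 30°C also differed for other genes with short coding sequences, such as rps21 at 1126 and 3348 CPM. They differed less for rps2201, a gene of the same length as rps21 with a longer coding sequence, at 601 and 751 CPM. However, rps21 and rps2201 also differ in GC content (40.79% and 44.08%) and in number of introns (1 and 0). What set these libraries apart was not tested. Over all features, the correlation of the log2 CPM of the 2 replicates was 0.993 for this group and 0.995 to 0.997 for the others.

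From 30°C to 37°C, 3 of the 46 genes rose and 4 fell in wild-type, 0 rose and 1 fell in lsd1-ΔHMG, and 0 rose and 7 fell in set1Δ. All features gave 5.55% higher and 15.9% lower in wild-type, 4.48% and 10.5% in lsd1-ΔHMG, and 11.4% and 20.9% in set1Δ. The 0 genes that rose compare with 9 in lsd1-ΔHMG and 20 in set1Δ at an unadjusted p under 0.05 in edgeR, and with 0 and 2 called by DESeq2 and 0 and 0 by limma-voom. Under the offsets the counts were 21 higher and 2 lower in wild-type, 2 and 1 in lsd1-ΔHMG, and 3 and 5 in set1Δ. With offsets and both directions together, wild-type had 21.1% of all features called, lsd1-ΔHMG had 12.8% and set1Δ had 29.0%. The wild-type comparison rests on the libraries whose hsp16 level went against their label. It also moved with the libraries in the fit: without wild-type 30°C replicate 2 it gave 12 genes called, and without wild-type 37°C replicate 1, set1Δ 30°C replicate 1 or 2, or set1Δ 37°C replicate 1 it gave 11. Without lsd1-ΔHMG 30°C replicate 1, the temperature comparison in lsd1-ΔHMG called 4 genes.

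In wild-type the genes that fell were rps001 (-2.90 ± 0.16), rps13 (-1.85 ± 0.16), rps2 (-1.70 ± 0.14) and rps602 (-1.18 ± 0.15), each on the log2 scale. Under the offsets rps001 and rps13 stood at -1.62 and -1.37, rps2 at -0.13, and rps602 reversed to 0.39. The genes that rose were rps1102 (SPAC144.11) for uS17, rps2201 (SPAC22A12.04c) for uS8 and rps902 (SPBC29A3.12) for uS4, all body proteins that bind ribosomal RNA. They stood at 117 and 151, 301 and 343, and 749 and 832 CPM at 30°C. At 37°C they stood at 289.7 and 296, 681 and 722, and 1650.3 and 1699 CPM, with log2 fold changes of 1.13 ± 0.13, 1.12 ± 0.12 and 1.08 ± 0.10. In none of the 3 did the temperatures overlap, and rps1102 fell to 0.96 without wild-type 30°C replicate 1.

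The 4 largest falls in set1Δ were those of rps2801, rps2401, rps2802 and rps21. rps2801 (SPAC25G10.06), for eS28 near the exit of the messenger RNA channel, stood at 1705 and 1918 in wild-type at 30°C and 1511 and 2088 at 37°C, 591 and 1636 in lsd1-ΔHMG at 30°C and 469 and 619.6 at 37°C, and 5109 and 6653 in set1Δ at 30°C and 1059.8 and 844 at 37°C. rps2401 (SPAC17G6.06), for eS24, stood at 2491 and 2777 in wild-type at 30°C and 2189 and 2455 at 37°C, 2284 and 2779.5 in lsd1-ΔHMG at 30°C and 863 and 957 at 37°C, and 9342 and 9551 in set1Δ at 30°C and 1669.7 and 1834 at 37°C. rps2802 (SPCC285.15c), the second eS28 gene, stood at 951 and 1114 in wild-type at 30°C and 992 and 1276 at 37°C, 449.6 and 1038 in lsd1-ΔHMG at 30°C and 405 and 542 at 37°C, and 3128 and 3728 in set1Δ at 30°C and 712 and 607 at 37°C, and rps21 at 2739 and 3332 in wild-type at 30°C and 2747 and 3769.8 at 37°C, 1126 and 3348 in lsd1-ΔHMG at 30°C and 1057 and 1503 at 37°C, and 8902 and 11647 in set1Δ at 30°C and 2269.7 and 1702 at 37°C. All 4 were highest in set1Δ at 30°C, where they rose over wild-type by log2 fold changes of 1.70 ± 0.42, 1.84 ± 0.13, 1.73 ± 0.35 and 1.76 ± 0.46. From 30°C to 37°C in set1Δ they fell, with log2 fold changes of -2.63 ± 0.44, -2.43 ± 0.13, -2.38 ± 0.36 and -2.37 ± 0.47. Under the offsets those were -2.21, -2.13, -1.96 and -1.97, and all 4 were still called. In lsd1-ΔHMG rps2401 was the single gene called between temperatures, at -1.48 ± 0.13. The other genes that fell in set1Δ were rps1201, rps27 and rps3002. The call of rps1201 was lost without set1Δ 37°C replicate 2 (-0.89), and those of rps27 and rps3002 without set1Δ 30°C replicate 2 or either set1Δ 37°C replicate, with edgeR adjusted p of 0.057 to 0.15 and 0.053 to 0.11.

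**Figure D4:**
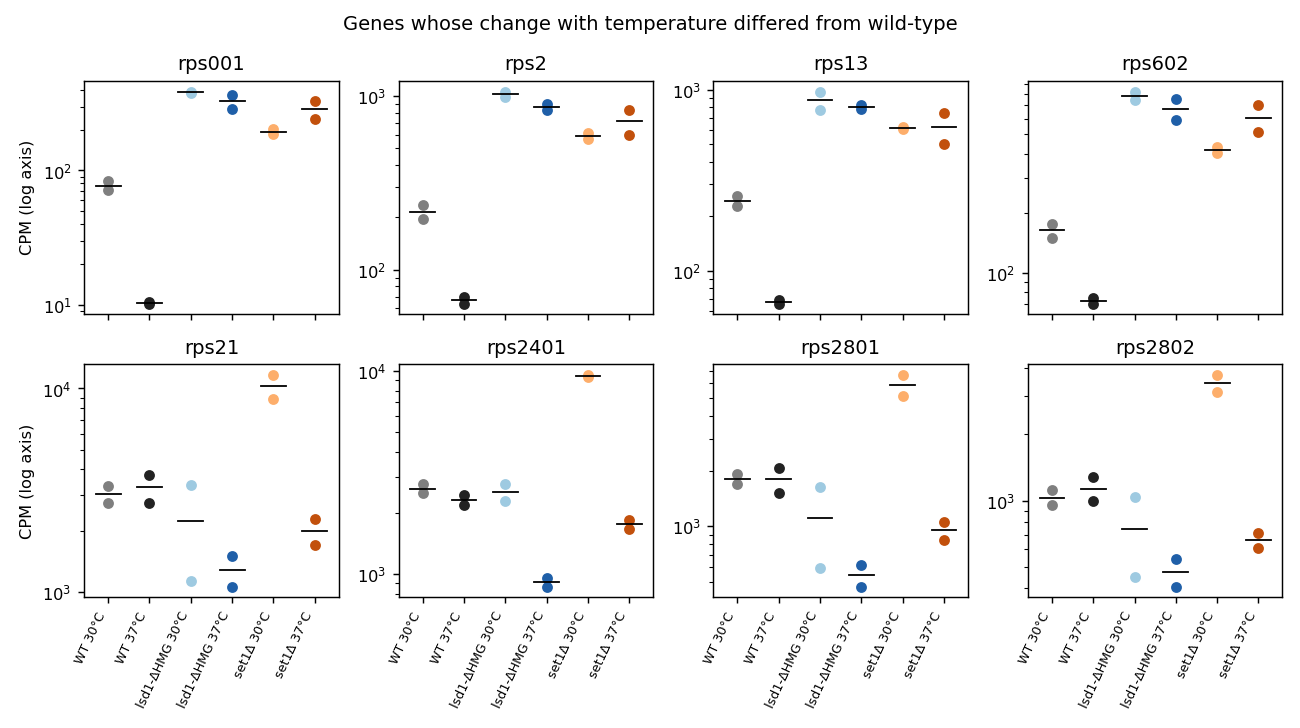
CPM on a log axis of 8 genes in each library (points, with the mean of the group as a bar). In CPM without offsets and with temperatures as labelled, the upper genes fall in wild-type at 37°C and stay high in both mutants. The lower genes are highest in set1Δ at 30°C. Under the offsets the wild-type change of rps602 reversed.

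The difference between a mutant's and the wild-type's change with temperature was tested directly. For lsd1-ΔHMG it was called for 3 genes upwards (rps001, rps13 and rps2) and 2 downwards (rps1902 and rps2401), against 12% and 6.42% of all features. For set1Δ it was called for 5 upwards (rps001, rps002, rps13, rps2 and rps602) and 8 downwards, against 18.9% and 17.9%. Without offsets, the share of the genes did not exceed that of all features in either direction in either mutant. In at least 1 mutant 14 genes were called, against 40.6% of all features, and 23 under the offsets, against 36.7%. Under the offsets lsd1-ΔHMG had 2 genes upwards and 9 downwards, set1Δ 2 and 18. Of all features under the offsets, 16.9% were called for lsd1-ΔHMG and 32.3% for set1Δ, both directions together. For rps001 the difference was 2.68 ± 0.21 in lsd1-ΔHMG and 3.46 ± 0.22 in set1Δ on the log2 scale. Without lsd1-ΔHMG 30°C replicate 1, 8 genes were called for lsd1-ΔHMG. The call of rps1902 was lost without wild-type 30°C replicate 1, wild-type 37°C replicate 2, lsd1-ΔHMG 30°C replicate 2 or lsd1-ΔHMG 37°C replicate 1 (-0.96 to -1.0), and that of rps002 without wild-type 30°C replicate 2, set1Δ 30°C replicate 2 or set1Δ 37°C replicate 1 (0.76 to 0.98). Without set1Δ 37°C replicate 2 rps21 was lost in set1Δ (edgeR adjusted p = 0.063), and rps27 was lost without any of 9 libraries (edgeR adjusted p of 0.05 to 0.15).

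The ratio between paralogs was less dependent on the offsets than the level of a single gene. It was tested as the log2 ratio of CPM + 1 with limma over the 123 pairs of paralogs found in the genome. Of the 21 pairs with at least 1 of the 46 genes, 7 changed in lsd1-ΔHMG at 30°C and 9 at 37°C, against 26.8% and 32.5% of all pairs, and 4 changed in set1Δ at 30°C and 8 at 37°C, against 21.1% and 27.6%. Between temperatures 3 changed in wild-type (18.7% of all pairs), 0 in lsd1-ΔHMG (6.5%) and 5 in set1Δ (17.9%), and the mutant by temperature difference was called for 3 pairs in lsd1-ΔHMG (19.5%) and 5 in set1Δ (20.3%), 6 pairs in all against 27.6%. Whether the shares differed from those of all pairs was not tested. The 0 pairs between temperatures in lsd1-ΔHMG compare with 10 at an unadjusted p under 0.05 in limma, and with 1 called without lsd1-ΔHMG 30°C replicate 1 or 37°C replicate 2. With ratios computed under the offsets, an alternative added after the data had been seen, 35 of the 44 calls were kept, whereas 51 of 118 calls of single genes were. In the 20 pairs described here the longest exact stretch shared by both transcripts was 14 to 101 bases, the longest for rps1401 and rps1402, and reads that lie within such a stretch cannot be assigned to either gene with certainty.

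rps23 (SPAC23C11.02c) and rps2302 (SPBP4H10.13) encode the same uS12 protein of the decoding centre, and their log2 ratio was 4.60 and 4.50 in wild-type at 30°C and 4.45 and 4.58 at 37°C, 1.52 and 1.49 in lsd1-ΔHMG at 30°C and 1.49 and 1.81 at 37°C, and 3.57 and 3.58 in set1Δ at 30°C and 2.13 and 2.55 at 37°C. The ratio was far from 0 in wild-type and nearer to it in every lsd1-ΔHMG library. It changed by -3.05 (95% interval -3.40 to -2.69) in lsd1-ΔHMG at 30°C and -2.87 (95% interval -3.22 to -2.51) at 37°C, and by -2.17 (95% interval -2.53 to -1.82) in set1Δ at 37°C. The less abundant gene, rps2302, stood at 99.1 and 126 in wild-type at 30°C and 78.3 and 90 at 37°C, 428 and 545 in lsd1-ΔHMG at 30°C and 431 and 386 at 37°C, and 329 and 306 in set1Δ at 30°C and 458 and 322 at 37°C, in CPM.

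rps801 (SPAC2C4.16c) and rps802 (SPAC521.05), for eS8, differed by a log2 ratio of 2.86 and 2.77 in wild-type at 30°C and 3.72 and 3.67 at 37°C, 0.54 and 0.58 in lsd1-ΔHMG at 30°C and 0.62 and 0.96 at 37°C, and 0.91 and 0.88 in set1Δ at 30°C and 0.90 and 1.16 at 37°C. Both mutants lay below wild-type at both temperatures, with changes of -2.26 (95% interval -2.54 to -1.98) and -2.90 (95% interval -3.18 to -2.63) in lsd1-ΔHMG at 30°C and 37°C. In set1Δ they were -1.92 (95% interval -2.20 to -1.64) and -2.67 (95% interval -2.94 to -2.39). The pair rps1901 (SPBC21C3.13) and rps1902 had ratios of -0.86 and -0.64 in wild-type at 30°C and -2.37 and -2.31 at 37°C, 0.95 and 1.30 in lsd1-ΔHMG at 30°C and 1.44 and 1.33 at 37°C, and 1.02 and 0.95 in set1Δ at 30°C and 0.86 and 0.43 at 37°C. Here the leading gene changed: rps1902 led in wild-type and rps1901 in all mutant libraries, with changes of 3.73 (95% interval 3.35 to 4.11) in lsd1-ΔHMG and 2.99 (95% interval 2.61 to 3.37) in set1Δ at 37°C. It was the only pair with both members called in opposite directions, in lsd1-ΔHMG at 37°C.

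The uS2 pair rps001 and rps002 had ratios of -0.83 and -0.89 in wild-type at 30°C and -3.22 and -3.12 at 37°C, -1.04 and -0.97 in lsd1-ΔHMG at 30°C and -1.03 and -0.99 at 37°C, and -1.0 and -1.03 in set1Δ at 30°C and -1.11 and -1.09 at 37°C. All 10 libraries other than wild-type at 37°C lay between -0.83 and -1.11. The change in wild-type from 30°C to 37°C was -2.31 (95% interval -2.41 to -2.21), and the difference from it was 2.31 (95% interval 2.16 to 2.45) in lsd1-ΔHMG and 2.22 (95% interval 2.08 to 2.37) in set1Δ. rps101 (SPAC13G6.02c) and rps102 (SPAC22H12.04c), for eS1, had ratios of -0.36 and -0.22 in wild-type at 30°C and 0.89 and 0.85 at 37°C, -0.50 and -0.75 in lsd1-ΔHMG at 30°C and -0.66 and -0.66 at 37°C, and -0.83 and -0.98 in set1Δ at 30°C and -0.65 and -0.57 at 37°C. Wild-type at 37°C was again the group apart, and its calls fell below the limit under the offsets. rps901 (SPAC24H6.07) and rps902, for uS4, had ratios of -1.52 and -1.34 in wild-type at 30°C and -1.95 and -1.93 at 37°C, -0.12 and 0.04 in lsd1-ΔHMG at 30°C and -0.11 and -0.26 at 37°C, and -0.38 and -0.35 in set1Δ at 30°C and -0.45 and -0.71 at 37°C, and were called in all 4 comparisons of mutants with wild-type, although the change in set1Δ at 30°C was 0.98 without wild-type 30°C replicate 1.

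rps1401 (SPAC3H5.05c) and rps1402 (SPBC18H10.13), which encode the same uS11 protein, had ratios of 1.17 and 1.46 in wild-type at 30°C and 0.62 and 0.68 at 37°C, -0.35 and -0.36 in lsd1-ΔHMG at 30°C and -0.71 and -0.45 at 37°C, and 0.64 and 0.61 in set1Δ at 30°C and 0.09 and -0.23 at 37°C. Their sign turned in lsd1-ΔHMG. rps2201 (SPAC22A12.04c) and rps2202 (SPAC5D6.01), for uS8, had ratios of -1.84 and -1.70 in wild-type at 30°C and -1.30 and -1.24 at 37°C, -0.16 and 0.10 in lsd1-ΔHMG at 30°C and 0.28 and 0.14 at 37°C, and -1.68 and -1.79 in set1Δ at 30°C and -0.61 and -1.02 at 37°C. The lsd1-ΔHMG libraries lay near 0, but under the offsets the change at 37°C was -0.35 in place of 1.48. rps601 (SPAC13G6.07c) and rps602, for eS6, had ratios of 1.22 and 1.20 in wild-type at 30°C and 1.78 and 1.77 at 37°C, 0.51 and 0.50 in lsd1-ΔHMG at 30°C and 0.72 and 0.90 at 37°C, and 0.83 and 0.88 in set1Δ at 30°C and 0.45 and 0.52 at 37°C, with a change of -1.29 (95% interval -1.43 to -1.16) in set1Δ at 37°C that reversed to 0.29 under the offsets.

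Other called pairs changed in set1Δ. rps1801 (SPBC16D10.11c) and rps1802, which encode the same uS13 protein, had ratios of -0.85 and -1.05 in wild-type at 30°C and -0.96 and -1.01 at 37°C, -0.50 and -0.53 in lsd1-ΔHMG at 30°C and -1.20 and -1.26 at 37°C, and 0.08 and 0.26 in set1Δ at 30°C and -1.33 and -1.08 at 37°C. The 2 set1Δ libraries at 30°C lay above 0 and all 10 others below it. rps2601 (SPAC806.03c) and rps2602 (SPAC1805.11c), for eS26 at the exit of the messenger RNA channel, had ratios of 0.28 and 0.10 in wild-type at 30°C and -0.59 and -0.57 at 37°C, -0.21 and -0.31 in lsd1-ΔHMG at 30°C and -1.08 and -1.09 at 37°C, and 0.05 and 0.02 in set1Δ at 30°C and -1.06 and -0.96 at 37°C. rps1201 (SPCC962.04) and rps1202, for eS12, had ratios of 0.33 and 0.52 in wild-type at 30°C and 0.65 and 0.75 at 37°C, 0.98 and 1.08 in lsd1-ΔHMG at 30°C and 0.56 and 0.58 at 37°C, and 1.29 and 1.21 in set1Δ at 30°C and 0.23 and 0.05 at 37°C, and rps2401 and rps2402 of -0.36 and -0.34 in wild-type at 30°C and -0.76 and -0.65 at 37°C, 0.14 and 0.39 in lsd1-ΔHMG at 30°C and -0.75 and -0.66 at 37°C, and 0.52 and 0.62 in set1Δ at 30°C and -0.67 and -0.67 at 37°C. The set1Δ ratios were lower at 37°C than at 30°C in each of these, and the change of rps2601 to rps2602 was -0.99 without set1Δ 37°C replicate 1. The 7 pairs not called in any of these comparisons were rps1101 and rps1102, rps1501 and rps1502, rps1601 and rps1602, rps1701 and rps1702, rps2801 and rps2802, rps3001 and rps3002, and rps401 and rps403.

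**Figure D5:**
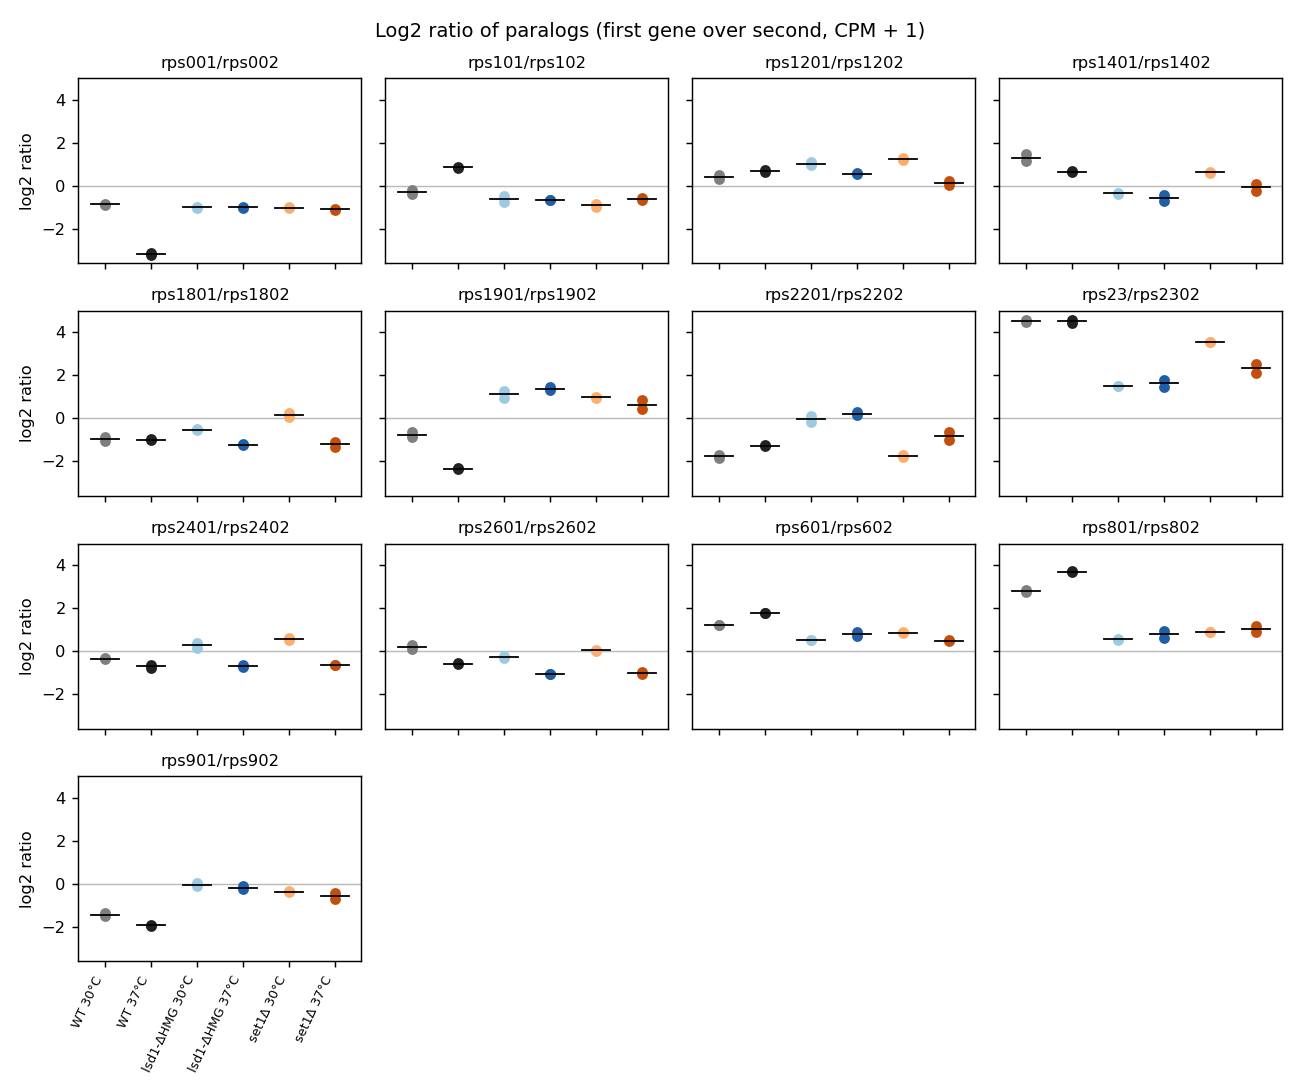
Log2 ratio of the first to the second paralog (CPM + 1) in each library, for 13 of the 14 pairs called in a comparison of mutant with wild-type or between temperatures; bars are group means. rps23/rps2302 lies between 4.45 and 4.60 in wild-type and between 1.49 and 1.81 in lsd1-ΔHMG.

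Grouped by place in the subunit, 3 of the 16 head genes and 19 of the 30 body and platform genes were higher in lsd1-ΔHMG at 30°C, with medians of -0.14 and 1.29. At 37°C it was 4 and 16 higher and 6 and 3 lower. In set1Δ 6 and 13 were higher at 30°C and 3 and 11 at 37°C. Over all features 24.4% and 25.4% were higher in lsd1-ΔHMG and 21.1% and 18.7% in set1Δ at 30°C and 37°C. Called lower were 18.1% and 15.4% in lsd1-ΔHMG and 11.6% and 5.53% in set1Δ. Under the offsets, 0 head and 6 other genes were higher and 5 of each lower in lsd1-ΔHMG at 30°C, with medians of -0.65 and 0.37, and at 37°C it was 1 and 4 higher and 11 and 7 lower. In set1Δ under the offsets, 2 of each were higher and 3 and 1 lower at 30°C, and 1 and 4 were higher and 9 of each lower at 37°C. Head genes had a median GC content of 42.5% and the others 44.1%, 13 of 16 and 10 of 30 held an intron, and the part of these features in the difference was not tested. Of the genes related in function, all counted without offsets, 33 of 86 large-subunit genes were higher and 5 lower in lsd1-ΔHMG at 30°C, and at 37°C it was 30 and 19. In set1Δ 25 were called at 30°C, all higher, and at 37°C 22 were higher and 3 lower. The 9 small-subunit genes that were not listed gave 3 higher and 1 lower in lsd1-ΔHMG at 30°C. Among them rps1002, which encodes the head protein eS10, was higher by 4.28 in lsd1-ΔHMG and 3.97 in set1Δ at 37°C.

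Of 31 genes for factors that assemble the small subunit, 5 were higher and 4 lower in lsd1-ΔHMG at 30°C. In set1Δ at 30°C 2 were higher and 9 lower, and the medians were -0.23 and -0.56. Over all features 24.4% were higher and 18.1% lower in lsd1-ΔHMG at 30°C, and 21.1% and 11.6% in set1Δ at 30°C. Values with offsets are not given for the genes of this paragraph. From 30°C to 37°C in set1Δ, 14 rose and 2 fell, against 11.4% and 20.9% of all features. Among them imp4 rose by 1.99 and nob1, the nuclease that makes the last cut of the small-subunit RNA, by 1.22. Of 12 regulators of ribosomal protein genes and TOR signalling, 6 were called in lsd1-ΔHMG at each temperature, all higher. Over all features 24.4% were called higher there at 30°C and 25.4% at 37°C. The forkhead factor gene fhl1 rose by 2.53 at 30°C and 3.83 at 37°C, and sfp1 by 2.00 and 3.27, all as log2 fold changes without offsets. In set1Δ at 37°C 3 of the 12 were called, all higher, against 18.7% of all features called higher. Of 26 translation initiation factor genes, 7 were higher and 4 lower in lsd1-ΔHMG at 30°C, and 2 were higher and 2 lower in set1Δ at 30°C.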

How the data were processed

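RNA of 12 whole-cell cultures was sequenced as strand-specific paired-end messenger RNA libraries. The authors trimmed reads with Trimmomatic 0.39, aligned them to ASM294v2 with STAR and counted them over gene features with featureCounts, splitting some reads, so the deposited values are estimated counts and 73.7% to 83.6% of them per library are not whole; they were rounded. Whether the count used the strand is not given in the sources used here, and 31 of the 46 genes overlap a gene on the other strand, with which reads cannot then be told apart. Of the value columns, 12 were used and 22, of other samples, were not.

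The main test was edgeR 4.0.16 (TMM scaling, filterByExpr, quasi-likelihood, 6 group means over all 12 libraries, Benjamini-Hochberg adjustment over 6904 features, R 4.3.3). Levels of different genes were set side by side per kilobase of gene, introns included, because reads were counted over whole genes; the plan had been per kilobase of exon, which is given as an alternative. Paralogs were reciprocal best blastp hits (2.17.0) with at least 70% identity and 80% of the length, tested with limma 3.58.1 on log2 ratios with a pseudocount of 1 CPM. Offsets came from natural splines (5 degrees of freedom) of each library on GC content and length, fitted on features with a mean count of at least 20. Gene names, positions and sequences came from RefSeq's ASM294v3, to which 6846 of 7268 features (94.2%) matched by identifier. The edgeR test without offsets and the test of paralog ratios were tried on simulated counts. Values in every library are given for paralogs whose ratio was called, the 5 highest and 5 lowest genes by the sum of the 4 mutant fold changes, the 3 largest and 3 smallest called changes with temperature in each strain, and the highest and lowest genes. The genes and lists were chosen with earlier results of these data known. Alternatives were other scalings, filters, tests, thresholds, offsets, a replicate block and leaving out each library. DESeq2 1.42.0 was an alternative. With 2 libraries in a group, p-values rest on a spread shared over all libraries. For 1 gene, its own values and the ratio of its pair are not reported here.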

Additional observations from a re-analysis of the deposited data

Results flagged for a closer look

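For 14 of the 46 genes and 6 pairs of paralogs, the change from 30°C to 37°C in a mutant differed from that in wild-type, by the interaction term of the fit over all features (edgeR for genes, limma for ratios). In at least 1 mutant the difference was called for 40.6% of all features and 27.6% of all 123 pairs. Values are differences of log2 changes, mutant minus wild-type, and all share the wild-type libraries whose hsp16 level went against their temperature labels. In lsd1-ΔHMG the differences were 2.68 for rps001, 1.73 for rps13, 1.45 for rps2, -1.03 for rps1902 and -1.29 for rps2401. In set1Δ they were 3.46 for rps001, 1.14 for rps002, 1.87 for rps13, 1.97 for rps2 and 1.72 for rps602. The set1Δ differences below 0 were -1.36 for rps1201, -1.42 for rps1801, -2.47 for rps21, -1.16 for rps2202, -2.25 for rps2401, -1.51 for rps27, -2.62 for rps2801 and -2.51 for rps2802. With offsets for GC content and length, 4 of the 5 calls in lsd1-ΔHMG and 8 of the 13 in set1Δ were kept in direction.

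For the ratios between paralogs, the differences in lsd1-ΔHMG were 2.31 for rps001 to rps002, -1.20 for rps101 to rps102 and 1.85 for rps1901 to rps1902. In set1Δ they were 2.22 for rps001 to rps002, -1.39 for rps1201 to rps1202, -1.34 for rps1801 to rps1802, 1.25 for rps1901 to rps1902 and -1.20 for rps23 to rps2302.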

How the results depend on the processing

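Of 118 calls of single genes, the offsets for GC content and length kept 51, weakened 57 and reversed 10; the cause was not tested. In the order lsd1-ΔHMG and set1Δ against wild-type at 30°C and then 37°C, the medians were 0.031, 0.46, -0.66 and -0.81, and the counts in set1Δ were 8 and 23. Between temperatures they gave 23 genes in wild-type (median 0.83) and 3 in lsd1-ΔHMG (median 0.40), and for the differences from wild-type 11 in lsd1-ΔHMG (median -0.62) and 20 in set1Δ (median -0.94). The replicate block with these offsets gave the same counts and medians within 0.01 (0.03 in lsd1-ΔHMG at 30°C, 0.41 between temperatures in lsd1-ΔHMG). Reversed in both fits at 37°C were rps901 (-0.30), rps403 (-0.51), rps1402 (-0.81), rps401 (-0.44) and rps20 (-0.50) in lsd1-ΔHMG, rps102 (-0.14) and rps2602 (-0.21, with the block -0.20) in set1Δ, rps602 in wild-type between temperatures (0.39), and rps602 (-0.002) and rps002 (-0.016, with the block -0.014) for the set1Δ difference; rps1102 reversed with the block alone (-0.001 in lsd1-ΔHMG at 30°C).

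Without a limit on the fold change, edgeR called 36 genes in lsd1-ΔHMG at 30°C, 37 and 33 in set1Δ at 30°C and 37°C, 34, 11 and 34 between temperatures in wild-type, lsd1-ΔHMG and set1Δ, and 23 and 30 for the differences. With a limit of 2 it called 7 and 12 in lsd1-ΔHMG, 0 and 9 in set1Δ, 1, 0 and 4 between temperatures, and 1 and 5. Fitting the compared libraries alone gave 12 genes in set1Δ at 30°C (median 0.62). Between temperatures in lsd1-ΔHMG, DESeq2 and upper-quartile scaling each called 2 genes, and upper-quartile scaling gave set1Δ a median of 0.42. Without a limit on the ratio change, 20 and 14 pairs changed in lsd1-ΔHMG, 16 and 14 in set1Δ, 15, 9 and 15 between temperatures, and 11 and 13 for the differences. At 90% identity the last was 3. Ratios with offsets, chosen after seeing the data, gave 5 pairs in wild-type and 2 in lsd1-ΔHMG between temperatures, and reversed rps2201 to rps2202 in lsd1-ΔHMG at 37°C (-0.35) and rps601 to rps602 in set1Δ at 37°C (0.29).

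The mean spread, under alternatives also chosen after seeing the data, was 1.47, 1.82, 0.84, 0.69 and 0.89 with offsets in wild-type at 30°C and 37°C, lsd1-ΔHMG at 30°C and 37°C and set1Δ at 37°C. Per kilobase of exon it was 1.64, 2.06 and 1.61 in wild-type at 30°C and 37°C and set1Δ at 30°C, and without overlapping genes 1.93 in wild-type at 37°C.

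Leaving out each library in turn gave 22 to 27 and 26 to 30 genes in lsd1-ΔHMG at 30°C and 37°C, 16 to 24 and 14 to 16 in set1Δ, 6 to 12, 1 to 4 and 6 to 10 between temperatures, and 4 to 8 and 11 to 15 for the differences. The medians ranged from 0.73 to 0.99 and 0.34 to 0.47 in lsd1-ΔHMG, 0.73 to 1.03 and -0.013 to 0.23 in set1Δ, 0.018 to 0.41, -0.091 to 0.17 and 0.033 to 0.38 between temperatures, and -0.44 to 0.07 and -0.48 to -0.034 for the differences. In lsd1-ΔHMG at 37°C, rps2801 and rps2802 were lost without lsd1-ΔHMG 37°C replicate 1 (edgeR adjusted p = 0.068 and 0.095), and rps21 without any of 5 libraries (0.056 to 0.18). Pairs ranged from 7 to 7 and 9 to 10, 3 to 5 and 8 to 8, 3 to 4, 0 to 1 and 4 to 6, and 3 to 3 and 4 to 5.

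Over 15 pairs of conditions, the correlation of same-numbered deviations ran from -0.18 to 0.35, with a median of 0.12 and 8 over 0.1, and the replicate numbers were not taken as pairing the libraries. A replicate block kept all 118 gene calls and all 44 ratio calls, with 23 and 30 genes in lsd1-ΔHMG at 30°C and 37°C and 19 and 14 in set1Δ.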
